A study of Caenorhabditis elegans with 4 samples.

Results

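The *ceh* genes (*C. elegans* homeobox) encode transcription factors that bind DNA through a homeodomain. They were taken here as all genes that the annotation of the Affymetrix *C. elegans* genome array names with a *ceh* symbol followed by a number, on probe sets that name a single gene. This gave 60 of 17118 genes, on 74 probe sets, and where a gene had several, the one brightest on average over the 4 arrays stood for it. RNA came from eggs that a hypochlorite treatment released from gravid adults, so that each array measured a mixture of embryonic stages whose ages are not given. The 2 arrays labelled daf19(m86)_daf12(sa204), called *daf-19(-)* here, carry the *m86* allele of *daf-19*, the gene of the RFX transcription factor of ciliated neurons. The 2 arrays labelled daf19(WT)_daf12(sa204), called *daf-19(+)* here, are wild type for it. Both groups carry *daf-12(sa204)*, which per the study's methods suppresses the constitutive dauer formation of *daf-19(m86)*, so no array measured a strain with intact *daf-12*.

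The deposited names of the groups conflict with those in the study's own listing. A listing of the same signals that accompanies the study heads the arrays labelled *daf-19(-)* as *daf-12* and those labelled *daf-19(+)* as *daf-19;daf-12*, and in each of its 4 signal columns 1998 of 1998 rows used here equal, within 0.05 signal units, an array deposited under the other genotype. *daf-19* itself gave 2493.4 and 2365.2 where the label is *daf-19(-)*, against 767.5 and 856.8 where it is *daf-19(+)*, so the mutated gene was higher where it is labelled mutant. A second *daf-19* probe set went the same way, with 1456.2 and 1231.2 where the label is *daf-19(-)*, against 440.2 and 460.2. How *m86* changes the level of *daf-19* RNA was not tested, so this level alone does not settle the labels. The study's listing, under its own naming, ranks known targets of this factor, *osm-6* and *che-2* among them, with the genes most reduced in *daf-19(-)* animals. The signals of those targets are not given here. Every direction below follows the deposited labels and would turn round under the other naming. From here on, 4 signals written as a pair against a pair are those of replicates 1 and 2 labelled *daf-19(-)* against replicates 1 and 2 labelled *daf-19(+)*, in that order. A log2 difference is that of log2(signal + 16), labelled *daf-19(-)* minus labelled *daf-19(+)*.

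Homeodomain proteins fall into classes by their homeodomain and by further DNA-binding or interaction domains, such as the CUT, POU, LIM and PBC domains. In *C. elegans* many act late, as factors that hold the identity of one neuron type, while others pattern early lineages, the epidermis, the pharynx or the body axis. CUT genes act together in all neurons, NK2 genes in the pharynx and its precursors, and PBC proteins as partners of Hox proteins. Signals of different probe sets were not compared with each other, because probes differ in how strongly they bind.

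Of the 60 *ceh* genes, 40 (66.7%) reached a signal of 80 on at least 2 arrays and were tested, against 56.8% of all genes. None of the 40 passed limma at an adjusted p under 0.05 in either direction. Over all 9723 tested genes, 0.422% were called higher and 0.0926% lower, so counts of 0 among 40 genes do not set the *ceh* genes apart. At an unadjusted p under 0.05, 1 *ceh* gene was higher (*ceh-34*; 12% of all genes) and 3 were lower (*ceh-13*, *ceh-49* and *ceh-51*; 7.92% of all genes). With the replicate number as a block, a fit in which limma took all variances from their trend, *ceh-49* alone passed, and it was lower. In that fit 4.7% of all genes were called higher and 3.36% lower, against 0 and 1 of the 40. At an unadjusted p under 0.05 it gave 3 higher *ceh* genes (*ceh-5*, *ceh-34* and *ceh-48*; 15.2% of all genes) and 3 lower (the same 3 as without the block; 10% of all genes).

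In the median, *ceh* genes differed between the labels no more than all tested genes did. The median log2 difference of the 40 was 0.08, and that of all tested genes 0.06. Regardless of sign, the medians were 0.26 and 0.31. The third largest difference regardless of sign was 0.55, and with this bound, read from these values, 38 of the 40 lay within it. Beyond it were *ceh-51*, at -1.10, and *ceh-49*, at -1.09, both lower on the arrays labelled *daf-19(-)*. They were the 2 genes with a ratio of mean signals of 2 or more. Over all tested genes 1.05% had so much lower a mean and 3.28% so much higher a mean. *ceh-51* was tested only because its arrays labelled *daf-19(+)* reached the floor of 80, so it had to differ, and its count among the 2 is a description. The standard errors of the 40 ranged from 0.17 to 0.47, with a median of 0.26. For 26 of the 40 the 95% confidence interval of the log2 difference lay inside 1 unit either side of 0, that is, within a 2-fold change, and for the other 14 it did not. The arrays of the 2 labels did not overlap for 11 *ceh* genes that were higher (27.5%, against 30.9% of all genes) and 10 that were lower (25%, against 23%). With a ratio of at least 1.5 required as well, 0 were higher (13.4% of all genes) and 2 were lower (6.31% of all genes). The direction was the same on the replicate 1 and on the replicate 2 arrays for 14 higher *ceh* genes (35% of the 40, against 38.3% of all genes) and 11 lower (27.5%, against 29.7%). In bulk RNA, fewer cells that use a gene and less of its RNA per cell cannot be told apart.

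**Figure D1:**
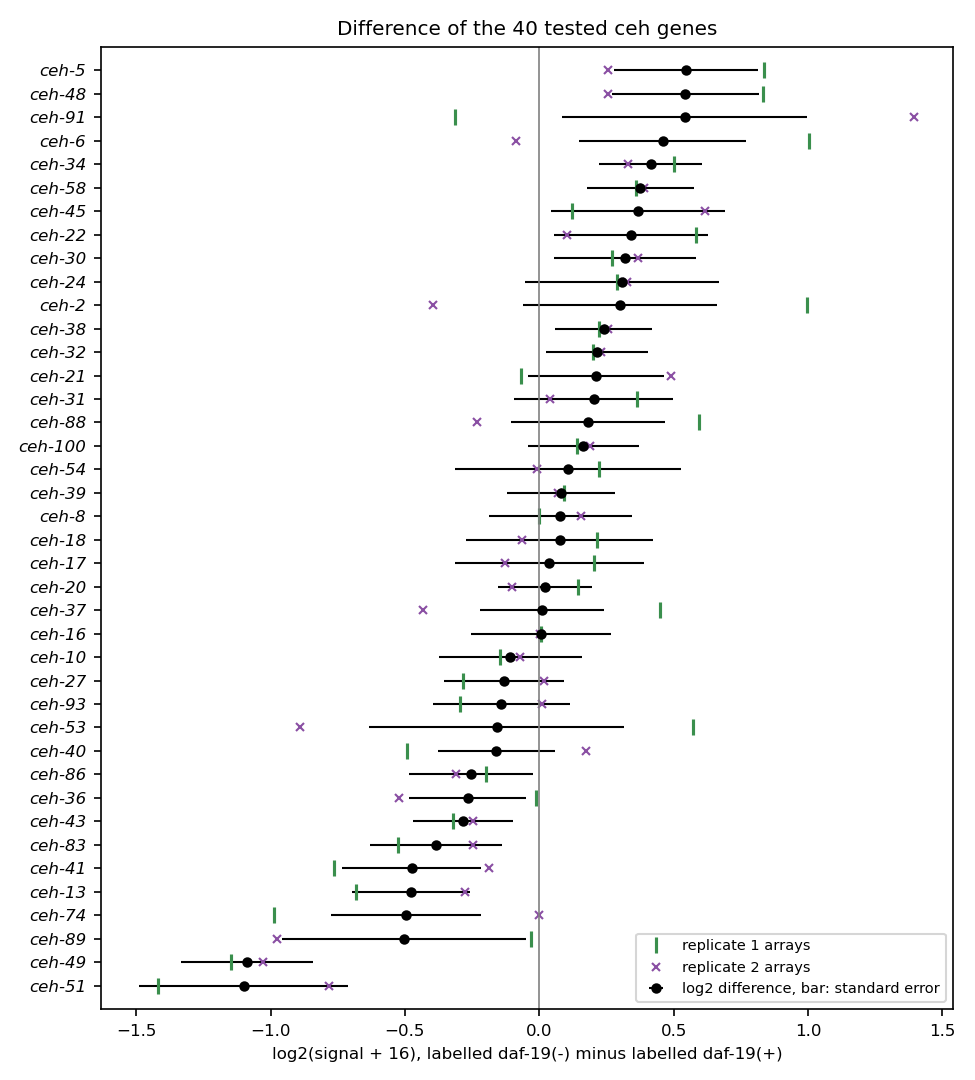
Log2 difference of each of the 40 tested *ceh* genes (x axis, log2(signal + 16), arrays labelled *daf-19(-)* minus arrays labelled *daf-19(+)*; genes on the y axis), as the mean with its limma standard error and as the value of the replicate 1 and replicate 2 arrays alone. *ceh-49* and *ceh-51* stand at -1.09 and -1.10, and 38 of the 40 lie within 0.55 of 0, a bound read from the third largest difference.

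The CUT class, whose members carry a cut domain beside the homeodomain, held the lowest adjusted p of all *ceh* genes. *ceh-49*, a gene of the ONECUT branch, had signals of 275.8 and 259.0 against 630.5 and 544.2. Both arrays labelled *daf-19(+)* were about as high as each other and clearly above both labelled *daf-19(-)*. The mean was 267 ± 11.9 (SD, n = 2) against 587 ± 61.0 (SD, n = 2), a log2 difference of -1.09 (standard error 0.25, adjusted p = 0.0807 from limma), which does not pass. The difference was -1.15 on the replicate 1 arrays and -1.03 on the replicate 2 arrays, and the signal was from 2.04 to 2.36 times as high on the arrays labelled *daf-19(+)* with 1 array left out. The call itself turns on the fit: it passed in the fit with the replicate block (adjusted p = 0.00263) and without replicate 2 labelled *daf-19(+)* (adjusted p = 0.0267), and without each other array the adjusted p ran from 0.24 to 0.40. *ceh-49* is one of 13 *ceh* genes whose brightest probe set is of a type that can detect more than one transcript, with *ceh-6*, *ceh-20*, *ceh-34*, *ceh-36*, *ceh-37*, *ceh-43*, *ceh-51*, *ceh-83*, *ceh-86*, *ceh-88*, *ceh-93* and *ceh-100*.

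The other CUT genes had differences of both signs, none past limma. *ceh-48*, expressed across the nervous system, had 692.9 and 825.3 against 382.5 and 689.0. Only replicate 1 labelled *daf-19(+)* was low, and replicate 2 lay just below the lower of the other label. Its log2 difference was 0.54 (standard error 0.27, adjusted p = 0.30 from limma). It passed when replicate 2 labelled *daf-19(+)* was left out (0.95, adjusted p = 0.0326), which leaves the low array as the single array of its label. *ceh-38*, which is broadly expressed, had 2688.3 and 3051.2 against 2302.9 and 2550.1 (log2 difference 0.24, adjusted p = 0.49 from limma).

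*ceh-41*, *ceh-21* and *ceh-39*, also of the ONECUT branch, stand next to each other in the RefSeq order of genes (assembly WBcel235), with no protein-coding gene between the first 2 and 1 between the last 2. Their signs varied between genes and between probe sets. *ceh-41* had 279.8 and 385.2 against 486.4 and 440.3, with no overlap of the labels and a log2 difference of -0.47 (standard error 0.26, adjusted p = 0.34 from limma). Its other probe set gave 170.6 and 246.0 against 287.1 and 314.2, a log2 difference of -0.52 (adjusted p = 0.36 from limma). *ceh-21* had 518.2 and 523.0 against 544.6 and 367.5, where the labels overlap. Its second probe set gave 402.8 and 364.6 against 560.4 and 428.4, without overlap and with the sign of *ceh-41* (log2 difference -0.34, adjusted p = 0.47 from limma). *ceh-39*, which acts as an X chromosome signal in sex determination, had 1057.5 and 1090.6 against 990.4 and 1037.7, a log2 difference of 0.08 (adjusted p = 0.86 from limma).

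The NK2 family, named after Drosophila homeobox genes, includes the largest log2 difference among the 40 tested *ceh* genes. *ceh-51*, which acts with the T-box gene *tbx-35* to specify the MS blastomere, the founder of pharynx and muscle cells, had 59.2 and 76.5 against 184.9 and 143.0. Both arrays labelled *daf-19(-)* lay under the floor of 80 and both labelled *daf-19(+)* above it, so the size of its difference is uncertain. The log2 difference was -1.10 (standard error 0.39, adjusted p = 0.18 from limma, and 0.0760 with the replicate block), with -1.42 on the replicate 1 arrays and -0.78 on the replicate 2 arrays. *tbx-35* was too dim to test, with 12.9 and 28.4 against 31.3 and 42.3.

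Later pharyngeal members of the NK2 family did not share this pattern. *ceh-22*, which activates pharyngeal muscle genes, had 453.9 and 572.6 against 297.7 and 532.7. *ceh-24*, expressed in a pharyngeal muscle and in vulval muscles, had 131.2 and 191.1 against 104.6 and 149.0. In both, replicate 1 labelled *daf-19(+)* was lowest and the labels overlapped. Their log2 differences were 0.34 (adjusted p = 0.54 from limma) and 0.31 (adjusted p = 0.67 from limma). *ceh-27* had 614.9 and 782.5 against 751.6 and 772.7, also overlapping.

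*ceh-51* belongs to the genes first transcribed in the early embryo. Most of the other early zygotic genes had lower signals on the arrays labelled *daf-19(-)* as well, without a call in the fit without the replicate block. The early zygotic genes were listed with earlier results of these data known. Of 25 listed besides *ceh-51*, 22 were on the array and 17 were tested. Of these 17, 12 lay lower on both arrays labelled *daf-19(-)* (23% of all tested genes did), 1 higher (*cwn-1*, a Wnt gene; 30.9% of all tested genes) and 4 overlapped, with a median log2 difference of -0.57 against 0.06 for all tested genes. None of the 17 passed limma. With the replicate block 3 of the 17 passed as lower, a larger share than the 3.36% of all tested genes. *end-1*, an endoderm GATA factor gene, had 277.2 and 340.1 against 609.3 and 461.6, and *lsy-27* had 794.7 and 704.2 against 1810.7 and 1144.0. Summed over the 22 genes, the signal was 13351 and 14349 against 20320 and 17846. Late differentiation genes of muscle, epidermis and neurons had 7 of 19 tested genes higher without overlap, near the 30.9% of all tested genes, 0 lower and a median log2 difference of 0.35, which was 0.70 on the replicate 1 arrays and 0.00 on the replicate 2 arrays. Their summed signal over 21 genes was 82969 and 71911 against 65803 and 77244. Such sums weigh the brightest probe sets most, here that of *sqt-3*, with 25622.6 and 22755.7 against 23251.3 and 24865.4. Of 18 maternal and germline genes 6 were lower without overlap (23% of all tested genes) and 0 higher (30.9%), with a median log2 difference of -0.18. What part a different mix of stages has in the values of *ceh-51* and *ceh-49* was not tested.

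**Figure D2:**
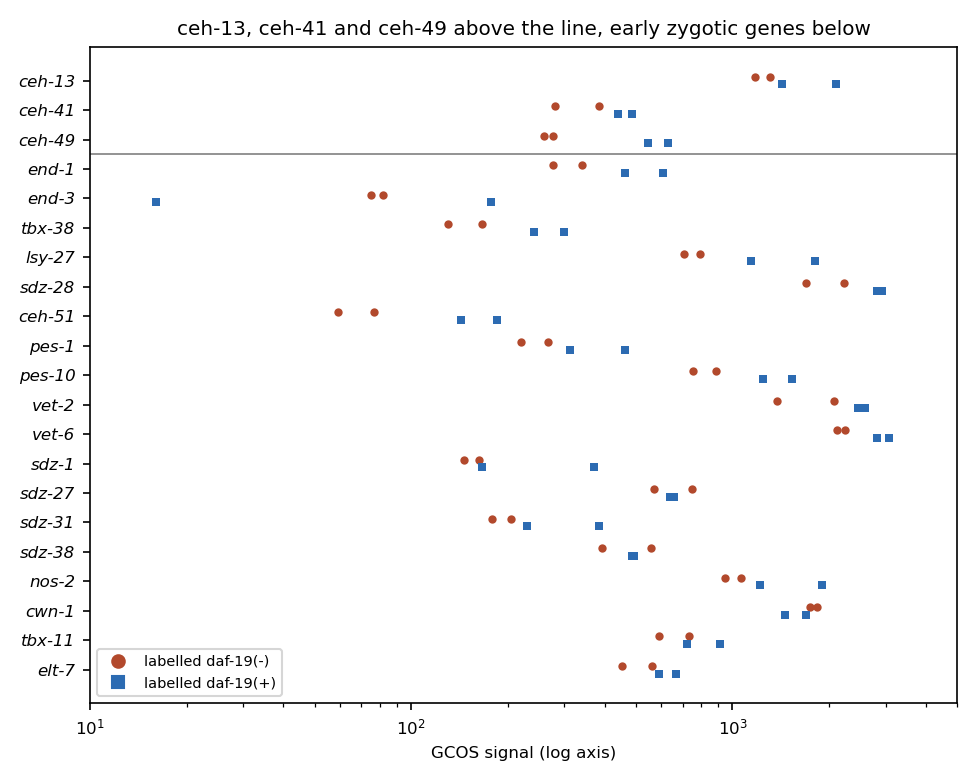
GCOS signal (x axis, log scale) on each of the 4 arrays for *ceh-13*, *ceh-41* and *ceh-49* above the line and for the tested early zygotic genes, *ceh-51* among them, below it. Circles are arrays labelled *daf-19(-)* and squares arrays labelled *daf-19(+)*. Of the 17 genes listed besides *ceh-51*, 12 have both circles left of both squares.

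The *sine oculis* class is named after its Drosophila member, and its genes act in head and pharyngeal development. Its 2 tested *ceh* genes leaned higher on the arrays labelled *daf-19(-)*. *ceh-34*, needed for the pharyngeal nervous system, had 1786.9 and 1625.5 against 1259.1 and 1290.4. The labels were well apart, with both replicate pairs close to each other. The log2 difference was 0.41 (standard error 0.19, adjusted p = 0.27 from limma), with 0.50 and 0.33 on the replicate 1 and replicate 2 arrays, and the ratio of means ranged from 1.28 to 1.40 with 1 array left out. *ceh-32*, with a role in head morphogenesis, had 1567.7 and 1626.3 against 1364.0 and 1383.5, also without overlap, and a log2 difference of 0.21 (adjusted p = 0.57 from limma). Its other probe set, with 1527.7 and 1499.2 against 1341.2 and 1525.1, overlapped. *ceh-33*, the gene next to *ceh-34* in the RefSeq order, was too dim to test, with 75.0 and 59.3 against 1.6 and 92.3. The gene of EYA-1, a partner of these proteins, overlapped between labels, with 879.1 and 806.2 against 901.3 and 866.0 for *eya-1*.

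The PBC class, homologs of Drosophila *extradenticle*, was nearly level on the brightest probe sets. *ceh-20*, a cofactor of Hox proteins, had 3411.3 and 3175.9 against 3083.4 and 3407.8, a log2 difference of 0.02 (standard error 0.17, adjusted p = 0.96 from limma). Its other probe set gave 2881.3 and 2874.1 against 2333.6 and 2584.8, higher without overlap (log2 difference 0.23, adjusted p = 0.51 from limma). *ceh-40*, which overlaps with *ceh-20* in function, had 1023.0 and 1210.3 against 1447.1 and 1070.6, a log2 difference of -0.16 (standard error 0.22, adjusted p = 0.72 from limma). Its sign rests on replicate 1 labelled *daf-19(+)*, without which it was 0.05. *ceh-60*, known from the adult intestine, was too dim to test, with 50.3 and 66.3 against 67.4 and 52.6. *unc-62*, the gene of a Meis-type partner of PBC proteins, had 2213.8 and 2083.9 against 2201.2 and 2076.4.

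Of the POU class, *ceh-6*, needed in the excretory cell, had 374.2 and 309.7 against 178.7 and 329.7. Replicate 1 labelled *daf-19(+)* was low and the other 3 arrays were alike, so the difference of 0.46 (standard error 0.31, adjusted p = 0.44 from limma) split into 1.00 on the replicate 1 arrays and -0.09 on the replicate 2 arrays. *ceh-18*, known from the gonadal sheath cells, had 139.6 and 161.9 against 118.0 and 169.9, a log2 difference of 0.08 (adjusted p = 0.93 from limma). The LIM gene *ceh-14*, which acts in the AFD thermosensory neuron, was under 80 on all 4 arrays. Its brightest probe set had 70.3 and 71.2 against 31.3 and 42.9, without overlap. The other gave 72.1 and 2.9 against 19.7 and 7.2, where the labels overlap.

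The paired-like and OTX genes include several that fix the identity of ciliated sensory neurons, and 6 of 6 were tested. *ceh-36*, an OTX gene of the AWC and ASE neurons, had 1085.1 and 796.6 against 1093.4 and 1151.1. Replicate 2 labelled *daf-19(-)* was low, while replicate 1 nearly met the arrays labelled *daf-19(+)*, and the log2 difference was -0.27 (standard error 0.22, adjusted p = 0.53 from limma). *ceh-37*, the OTX gene next to it in the RefSeq order, which acts in the AWB neuron, had 1471.6 and 1016.0 against 1072.4 and 1375.6, a log2 difference of 0.01 that was 0.45 on the replicate 1 arrays and -0.43 on the replicate 2 arrays. Its other probe set, with 628.9 and 916.6 against 408.6 and 856.5, also overlapped, with a log2 difference of 0.35 (adjusted p = 0.56 from limma). *ttx-1*, an OTX gene of the AFD neuron that bears no *ceh* name, had 780.9 and 724.7 against 492.9 and 394.1, a log2 difference of 0.75 (adjusted p = 0.14 from limma, and 0.0348 with the replicate block). Whether *ttx-1* and the *ceh* OTX genes differ in their response was not tested.

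Among the remaining paired-like genes, *ceh-45*, a goosecoid homolog, had 206.3 and 206.4 against 188.5 and 129.2. The labels did not overlap, replicate 2 labelled *daf-19(+)* was lowest, and the difference was the largest of its class, a log2 difference of 0.37 (standard error 0.32, adjusted p = 0.56 from limma). *ceh-10*, which acts in the AIY interneuron and in CAN neurons, had 309.1 and 414.5 against 343.4 and 436.2. Here, as in *ceh-8* and *ceh-17*, a Phox2 homolog, the 2 replicates of a label differed more than the labels did. The log2 differences of these 3 genes were -0.11, 0.08 and 0.04.

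The Hox gene and its ANTP class relatives had differences of both signs, none past limma. *ceh-13*, the labial-type Hox gene used in the anterior body, had 1308.3 and 1176.7 against 2106.0 and 1427.1. Replicate 1 labelled *daf-19(+)* was far above the other arrays, and replicate 2 lay just above the higher of the other label. The log2 difference was -0.48 (standard error 0.22, adjusted p = 0.27 from limma). It passed without replicate 2 labelled *daf-19(+)*, at -0.76 (adjusted p = 0.0338). *ceh-43*, a Distal-less homolog of head epidermis and neurons, had 1836.8 and 2127.6 against 2296.8 and 2529.5, without overlap, and a log2 difference of -0.28 (standard error 0.19, adjusted p = 0.42 from limma).

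*ceh-5* had the highest log2 difference of the 40 tested *ceh* genes, just above *ceh-48* and *ceh-91*, with 430.7 and 370.1 against 234.3 and 307.3. The labels did not overlap, and the log2 difference of 0.55 (standard error 0.27, adjusted p = 0.29 from limma) was 0.84 on the replicate 1 arrays and 0.26 on the replicate 2 arrays. The neighbouring BarH-like genes *ceh-30*, which keeps male-specific CEM neurons alive, and *ceh-31* had 338.7 and 434.6 against 277.9 and 333.1, and 273.0 and 210.3 against 208.4 and 204.2. Both were higher without overlap, *ceh-30* by 0.32 and *ceh-31* by 0.20 on the log2 scale. *ceh-16*, the engrailed homolog of the seam cells, had 330.2 and 411.9 against 328.3 and 411.3, a log2 difference of 0.00 (adjusted p = 0.99 from limma), with the replicates of each label apart by the same step. *ceh-2*, of the empty spiracles type, had 252.6 and 162.0 against 118.6 and 218.3, which overlap.

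**Figure D3:**
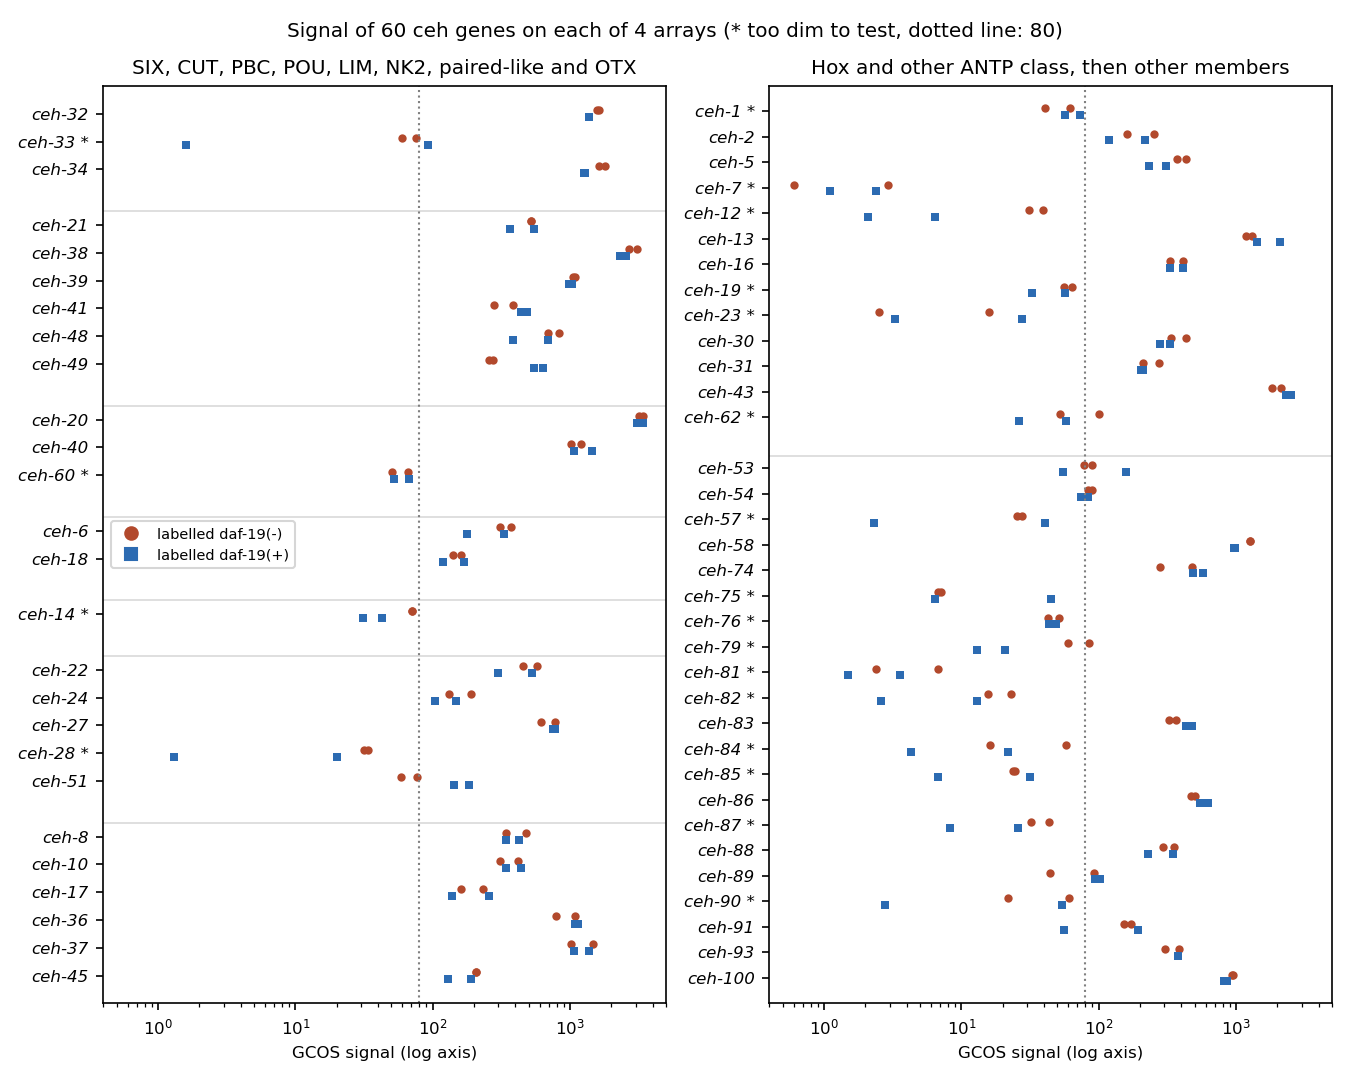
GCOS signal (x axis, log scale) of the 60 *ceh* genes on each of the 4 arrays, by class from top to bottom with a line between classes (left, *sine oculis*, CUT, PBC, POU, LIM, NK2, paired-like and OTX; right, Hox and other ANTP class, then the other genes). Circles are arrays labelled *daf-19(-)*, squares arrays labelled *daf-19(+)*, an asterisk marks the 20 genes too dim to test, and the dotted line is the floor of 80.

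Of 21 *ceh* genes on none of these class lists, 11 were tested, with a median log2 difference of -0.14. *ceh-58* had 1274.2 and 1264.8 against 988.4 and 960.9. Its replicates were close and the labels well apart, with a log2 difference of 0.38 (standard error 0.20, adjusted p = 0.32 from limma), alike on the replicate 1 and replicate 2 arrays. Its other probe set, with 230.9 and 388.0 against 209.0 and 357.8, overlapped, with replicates far apart and a log2 difference of 0.12 (adjusted p = 0.87 from limma). *ceh-57*, next to *ceh-58* in the RefSeq order, was dim, with 25.2 and 27.6 against 2.3 and 40.7. *ceh-83* had 325.8 and 363.5 against 475.5 and 433.7, lower without overlap (log2 difference -0.38, adjusted p = 0.41 from limma), while its neighbours *ceh-81* and *ceh-82* did not exceed 22.9 on any array. *ceh-91* had 153.5 and 172.1 against 194.5 and 55.5, and its difference of 0.54 rests on 1 low array, since without replicate 2 labelled *daf-19(+)* the ratio of means was 0.837. *ceh-74*, with 281.6 and 481.8 against 574.0 and 482.3, and *ceh-89*, with 91.9 and 44.1 against 94.2 and 102.1, were lower without overlap but by a margin of less than 3 signal units. *ceh-100*, with 942.7 and 933.1 against 854.4 and 816.4, was higher without overlap, and *ceh-86*, with 472.1 and 504.1 against 544.4 and 628.0, lower. For the remaining 4, *ceh-53*, *ceh-54*, *ceh-88* and *ceh-93*, the labels overlapped.

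The 20 *ceh* genes that were not tested had signals from 0.6 to 100.9, and 17 of them were under 80 on all arrays. For 6 of the 20 both arrays labelled *daf-19(-)* were above both labelled *daf-19(+)*, and for 0 below. Among all 7395 genes too dim to test these shares were 21.7% and 11.6%. *ceh-79* had 59.5 and 85.5 against 12.9 and 20.6. *ceh-12*, the HB9 homolog of VB motor neurons, had 31.1 and 39 against 6.4 and 2.1. *ceh-28*, of the M4 pharyngeal neuron, had 33.7 and 31.5 against 1.3 and 20.2. The other 3 were *ceh-14*, *ceh-82* (22.9 and 15.6 against 2.6 and 13) and *ceh-87* (43.8 and 31.9 against 25.7 and 8.3). Signals this low are not reliably above background on these arrays, no test was made of them, and the median signal of whole arrays was also higher on the arrays labelled *daf-19(-)* (136 and 144 against 106.0 and 127).

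For 12 *ceh* genes the array holds more than 1 probe set, and these give a measure of how firm a direction is. In 8 of the 12 the probe sets gave the same sign, *ceh-41* and *ceh-22* with nearly the same log2 difference (-0.47 and -0.52, 0.34 and 0.33). In 4 the signs differed. *ceh-38* had a second probe set with 1111.4 and 1045.2 against 1162.5 and 1216.9, so that both of its probe sets separated the labels without overlap and in opposite directions, 0.24 and -0.14 on the log2 scale. The 3 probe sets of *ceh-21* gave 0.21, -0.34 and 0.32, and the 3 of *ceh-39* gave 0.08, -0.25 and 0.14, none of them past limma. The probe sets of *ceh-60* were too dim to test.

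**Figure D4:**
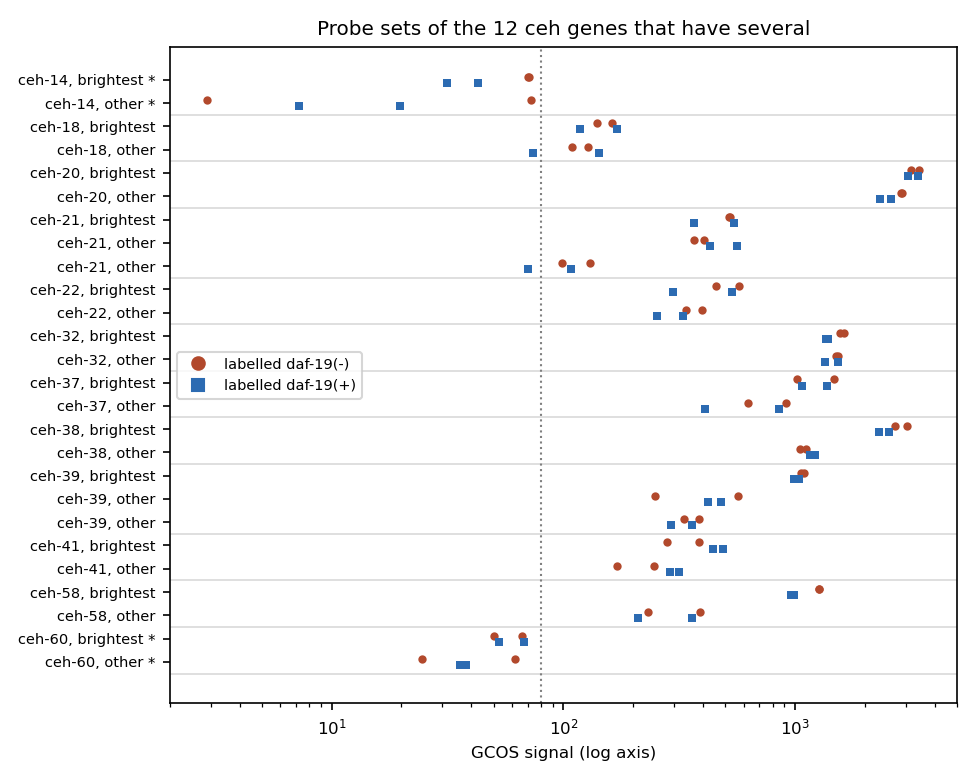
GCOS signal (x axis, log scale) on each array for every probe set of the 12 *ceh* genes that have more than 1, the brightest of each gene first. Circles are arrays labelled *daf-19(-)*, squares arrays labelled *daf-19(+)*, asterisks mark probe sets too dim to test. The probe sets of *ceh-41* lean the same way and those of *ceh-38* opposite ways.

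Replicate 1 labelled *daf-19(+)* weighed most on the median log2 difference of the tested *ceh* genes. It was the lowest of the 4 arrays for 18 of the 40 tested *ceh* genes (45%, against 40.7% of all tested genes) and the highest for 9 (22.5%, against 29.2%). Without it the median log2 difference of the 40 was -0.09 in place of 0.08, and 17 of the 40 were above 0 in place of 25. Over all tested probe sets the median was then 0.02 in place of 0.06, and 52.5% were above 0 in place of 55.8%. For 27 of the 40 the log2 difference between labels was smaller than the larger of the 2 differences between replicates. Across the 40 genes, which are not independent replicates, log2 signals correlated at 0.97 between the arrays labelled *daf-19(-)*, at 0.94 between those labelled *daf-19(+)*, and at 0.92 to 0.95 between labels.

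Homeobox genes with other names more often lay higher than lower on the arrays labelled *daf-19(-)*, without a call in the fit without the replicate block. Of 37 listed, 36 were on the array and 34 tested. Of these, 17 lay higher on both arrays labelled *daf-19(-)* (30.9% of all tested genes did), 3 lower (23%) and 14 overlapped, with a median log2 difference of 0.31 against 0.06 for all tested genes. Among those higher, *unc-4*, which acts in motor neurons, had 123.2 and 157.8 against 61.1 and 85.9, and *unc-42*, which acts in interneurons and motor neurons, had 917.4 and 702.5 against 556.3 and 566.9. Among those lower, *unc-39* had 367.4 and 529.6 against 576.2 and 706.0, a log2 difference of -0.52 (adjusted p = 0.29 from limma). None of the 34 passed limma. With the replicate block *ttx-1* and *dve-1* passed as higher, as did 4.7% of all tested genes. Whether this list differs from the *ceh* genes was not tested. Of 8 genes of proteins that act with CEH factors, 4 were higher without overlap (30.9% of all tested genes) and 0 lower (23%), among them *sox-3*, with 367.1 and 364.3 against 131.6 and 224.3 (log2 difference 1.02, adjusted p = 0.14 from limma, and 0.0181 with the replicate block).

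Over the whole series, 12084 to 13454 probe sets reached a signal of 80 on an array. Of 10 genes listed for embryonic tissues, 9 were tested, against 56.8% of all genes, *elt-2* of the gut, *hlh-1* of muscle and *pha-4* of the pharynx among them. Reaching the floor does not by itself show the stage of the tissue. Of 5 vitellogenin genes on the array, which mark the adult gut, 1 was bright enough to test, and of 13 genes of major sperm proteins 4 were, with summed signals of 703 and 810.0 against 623 and 749. The summed vitellogenin signal was 202 and 161 against 132 and 1001, so replicate 2 labelled *daf-19(+)* stood apart in it. The labels do not say whether replicates were cultured apart, and the p-values cover only the variation among these 4 arrays, which may be technical.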

How the data were processed

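Total RNA of *C. elegans* eggs was hybridised to 4 Affymetrix *C. elegans* genome arrays. The deposited values are linear signal intensity values, 1 for each probe set, which the authors made with GCOS, whose version is not stated, scaling each chip to a target signal of 500. No further step between chips is stated, and 0 columns were left unused.

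Of 22625 probe sets 77 controls were left out. Probe sets at 80 or more on at least 2 arrays (13096 of 22548) were fitted by lmFit and eBayes (trend = TRUE) of limma 3.58.1, run in R 4.3.3, after adding 16 and taking log2, and two-sided p-values were adjusted over all of them by the Benjamini-Hochberg method. Counts of genes use the brightest probe set of each gene. The platform annotation names 1 gene for 20766 probe sets, and 20701 of these were matched to RefSeq, as were all 60 *ceh* genes. A probe set shared by *ceh-63* and another gene was not used.

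The replicate numbers were taken to pair the arrays, since the study describes separate experiments with a fold for each. The labels themselves state no pairing. Differences between replicates 1 and 2 correlated at 0.12 between labels. Genes described in full were those called in either fit, those with a ratio of 1.5 or more and no overlap, the largest difference of each class, and those whose probe sets disagree; others were chosen after their values were seen. Members, lists and tests were chosen with earlier results of these data known. The fit was tested on simulated data. Alternatives were other filters, offsets and normalization, eBayes without the trend, the replicate block, averaged probe sets of a gene, shared probe sets left out, and each array left out. A planned search of promoters for the X-box was not run, since no promoter sequences were used here. With 2 arrays per label, the number of arrays sets the precision.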

Additional observations from a re-analysis of the deposited data

How the results depend on the processing

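Under every alternative in which no array was left out, 0 *ceh* genes were called, except that 1 was called lower with the replicate block. Without 1 array the calls ranged from 0 to 1 higher and from 0 to 2 lower, and those made were *ceh-48*, *ceh-13* and *ceh-49*, all without replicate 2 labelled *daf-19(+)*. The median log2 difference of the *ceh* genes, 0.08, was 0.20 without shared probe sets and ranged from -0.0869 to 0.147 with 1 array left out. The median of all probe sets, 0.06, was 0.098 without shared probe sets. After quantile normalization 50% of the *ceh* genes were above 0 in place of 62.5%, and 50.3% of all probe sets in place of 55.8%. Without replicate 1 labelled *daf-19(+)* 42.5% of the *ceh* genes were above 0, against 52.5% of all probe sets. Among the 10 tested genes named by the rule for description, the sign changed in 3 cases: *ceh-39* at -0.0102 with the mean of all its probe sets, *ceh-40* at 0.0549 without replicate 1 labelled *daf-19(+)* (range -0.374 to 0.0549 with 1 array left out) and *ceh-21* at -0.0631 without replicate 2 labelled *daf-19(+)* (range -0.0631 to 0.485). Over all probe sets, 47 were called higher and 11 lower. The counts were 572 and 394 with the replicate block, 11 and 2 with no filter, and 26 and 2 with no variance trend. Higher calls numbered 24 with a floor of 80 on all 4 arrays and 31 after quantile normalization, and lower calls 20 with an offset of 64. Leaving out single arrays gave 14 to 971 higher calls and 4 to 614 lower. *ceh-49* and *ceh-51* stayed lower under all alternatives that tested them. The causes of these shifts were not tested. Dim signals limit *ceh-51* and all untested genes.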
